A study of Mus musculus with 10 samples.

Results

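The loss of Zeb2 in splenic cDC1s was examined by pooling every genotype labelled as lacking it. Of the 10 arrays of the study, 7 were pooled, chosen by their titles: 3 of Zeb2 KO, 2 of Nfil3 Zeb2 DKO, which also lacks Nfil3, and 2 of Zeb2 Id2 DKO, which also lacks Id2. The other 3 arrays were WT, and all 3 deleted genotypes were compared with these same WT arrays. The cells were conventional type 1 dendritic cells (cDC1s) sorted from mouse spleen, and their total RNA was amplified and hybridised to Affymetrix Mouse Gene 1.0 ST arrays. The strain, the age of the mice, the form of each deleted allele, any Cre driver, the sort gate and whether arrays of a genotype came from separate animals are not given in the sources used here, and the p-values therefore speak only of the scatter among these arrays. All 7 pooled arrays share the Zeb2 deletion in their label and 4 of them carry a second deletion.

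cDC1s take up dying cells and present their antigens to CD8 T cells, and they depend on the transcription factors Irf8 and Batf3. Zeb2 is a zinc-finger repressor that binds E-box sequences; in haematopoiesis it favours plasmacytoid dendritic cells and monocytes over cDC1s, and in epithelia it represses adhesion genes. Nfil3, a basic leucine zipper repressor, acts against Zeb2 during cDC1 development, and Id2 holds E proteins away from DNA. In bulk RNA such as this, more cells of a type and more RNA per cell cannot be told apart.

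Levels are log2 of the RMA intensity of a gene's probe set, and each fold change is the mean of the 3 genotype means, each with equal weight, minus the WT mean. A gene was called when the adjusted p of this contrast (limma, Benjamini-Hochberg over 19938 genes) was under 0.05 and all 3 genotype means lay on the same side of WT. Median intensity per array was 76.3 to 82.9 in Zeb2 KO, 80.9 to 81.6 in the Nfil3 Zeb2 DKO pair, 77.4 to 79.0 in the Zeb2 Id2 DKO pair and 79.3 to 80.0 in WT. Zeb2 KO replicate 3 stood apart, with a correlation of 0.986 to both other Zeb2 KO arrays, against 0.996 between those 2. With so few arrays the median 95% confidence interval reached 0.183 to either side of the estimate.

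The targeted genes were read first as a check of the labels. Zeb2 lay at 6.10, 6.27 and 5.40 in arrays labelled Zeb2 KO, at 6.46 and 6.24 in the Nfil3 Zeb2 DKO pair and at 6.78 and 6.82 in the Zeb2 Id2 DKO pair, against 6.0, 5.93 and 6.30 in WT. The 7 arrays together overlapped WT, but the Zeb2 Id2 DKO pair lay above all 3 WT arrays. The shifts had mixed signs, at -0.16 for Zeb2 KO, 0.27 for Nfil3 Zeb2 DKO and 0.72 for Zeb2 Id2 DKO. The pooled shift was 0.28 [-0.09 to 0.65] (adjusted p = 0.931). The Zeb2 probe set therefore did not show the deletion, and if it lies outside the deleted part it checks nothing about it. The pooled arrays are accordingly called Zeb2-deleted as their labels state it. Id2 lay at 5.01 and 4.98 in the Zeb2 Id2 DKO pair, with 9.89 to 10.50 in the other 5 pooled arrays and 10.15 to 10.43 in WT, and Nfil3 lay at 6.20 and 7.09 in the Nfil3 Zeb2 DKO pair, with 10.12 to 10.41 in the other 5 pooled arrays and 9.98 to 10.77 in WT. These 2 targets were low where their labels say.

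The defining cDC1 genes were above the median of the tested genes (6.44 to 6.55 log2) in all 10 arrays. Irf8 lay at 12.42 to 12.71 in the 7 Zeb2-deleted arrays and 12.45 to 12.55 in WT. The dead-cell receptor gene Clec9a lay at 11.60 to 11.96 in the Zeb2-deleted arrays and 11.86 to 11.95 in WT, and the chemokine receptor gene Xcr1 lay at 11.36 to 11.78 in the Zeb2-deleted arrays and 11.48 to 11.64 in WT. Batf3 lay at 10.08 to 10.47 in Zeb2-deleted arrays and 10.04 to 10.41 in WT. None of these 4 genes passed the test.

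Against WT, 44 genes were called in the Zeb2-deleted genotypes: 14 were higher and 30 lower. This is 0.0702% of the 19938 genes for the higher direction, 0.15% for the lower and 0.221% in all. A further 3 genes had an adjusted p under 0.05 with genotype means of mixed sign (Id2, Adgrl2 and Lrrc4c) and are not counted. By at least 2-fold, 4 of the called genes rose (Ngp, S100a9, Prtn3 and Cd6) and 5 fell (Xlr, Adgrl3, Nfil3, Adam22 and Slc25a33). Nfil3, counted among the 30 lower calls, is a target in Nfil3 Zeb2 DKO, where its shift was -3.84. It was -0.26 in Zeb2 KO and -0.23 in Zeb2 Id2 DKO, so its call is no result about Zeb2. For comparison, 3898 genes (19.6%) were higher and 3936 (19.7%) lower in all 3 genotype means whatever their p. Counts in the gene lists below are to be read beside these shares. The median shift over all genes was 0.002. In 32 of the 44 called genes no Zeb2-deleted array overlapped a WT array, 10 of them higher and 22 lower, which calling by p favours; over all genes all 7 arrays lay above WT in 166 (0.833%) and below it in 218 (1.09%).

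The 44 calls did not weigh equally on the 3 genotypes. The Zeb2 Id2 DKO mean lay farthest from WT in 34 of them, the Zeb2 KO mean in 7 and the Nfil3 Zeb2 DKO mean in 3. Its target Nfil3 is among those 3. The Nfil3 Zeb2 DKO mean lay nearest to WT in 27. The same count over all genes was not made, and calling by the pooled p favours genes with a large shift in a single genotype. An F test among the 3 genotypes had an adjusted p under 0.05 in 21 of the 44, against 112 of all genes (0.562%). Calls and F test share the same estimate of the spread, so genes of low spread are favoured in both. In 29 of the 44 the shift of each genotype had an unadjusted p under 0.05. These contrasts share the WT arrays and the spread with the pooled contrast that chose the genes, which favours low values. Zeb2 Id2 DKO was then taken out of the pool, with its arrays kept only for the estimate of the spread. In this setting 1 gene was called, the target Nfil3. An unadjusted p under 0.05 was found in 41 of the 44, against 877 of all genes. The 44 were chosen with Zeb2 KO and Nfil3 Zeb2 DKO in the pool and with the same WT arrays and spread. That choice favours low values, so the 41 are no separate support for the calls. Without Zeb2 Id2 DKO in the pool, some shifts stayed about as large and others did not. The shift was -1.03 for Clec7a (-0.97 with all 3 genotypes pooled), -0.56 for Cd80 (-0.55), -0.64 for Nr4a3 (-0.58) and 2.27 for Ngp (2.50), but 0.10 for Ifit3 (0.84), 0.26 for Slfn1 (0.89) and 0.15 for Olig1 (0.44). All 44 calls were lost with the Zeb2 Id2 DKO arrays left out altogether, and with the 7 arrays treated as 1 group without regard to genotype.

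**Figure D1:**
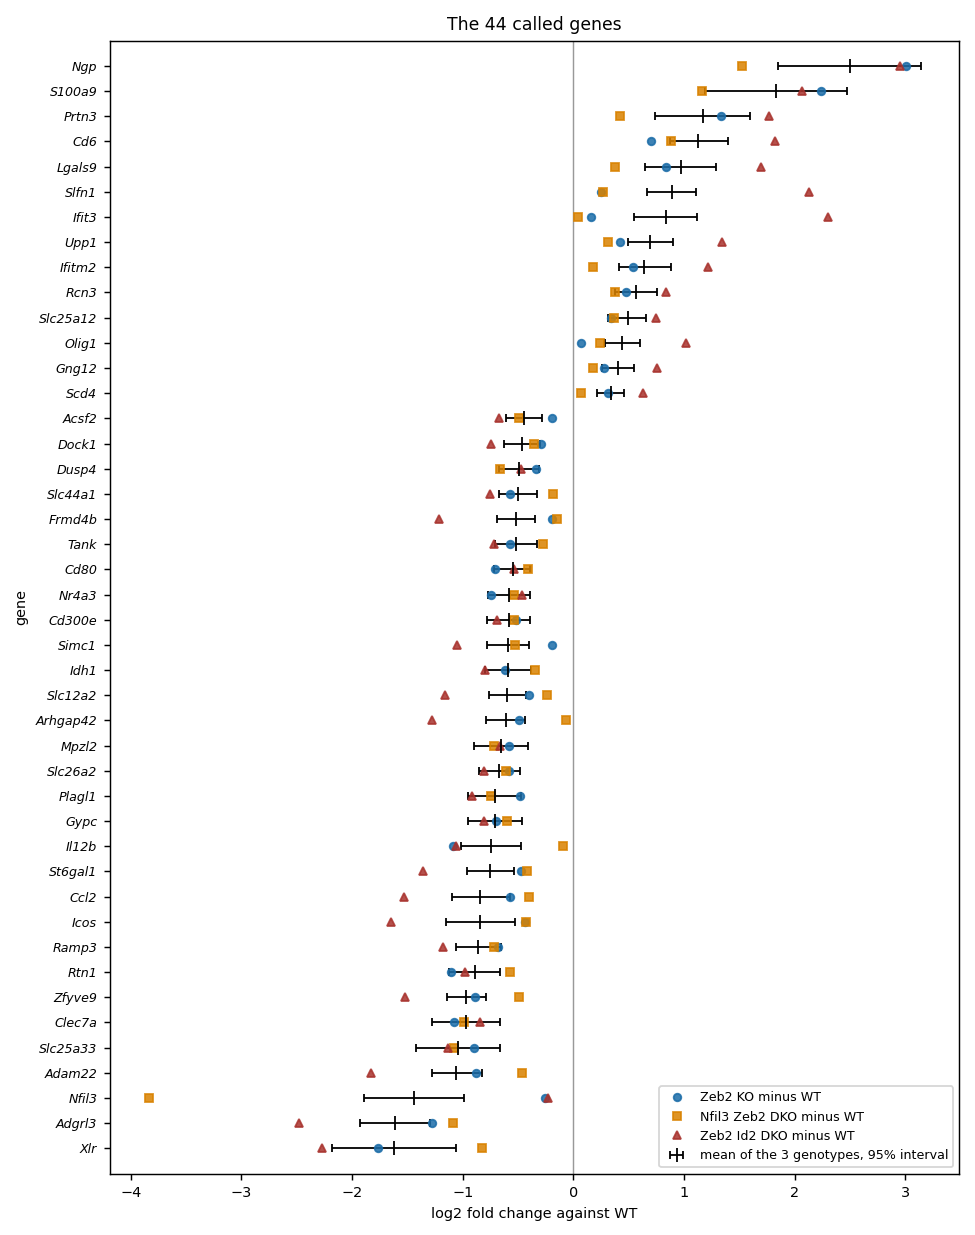
Shift from WT in log2 units (x axis) of the 44 called genes (rows). Black ticks with bars are the mean of the 3 Zeb2-deleted genotypes with its 95% confidence interval, and coloured symbols are the 3 genotypes; the Zeb2 Id2 DKO triangle lies farthest from 0 in 34 rows, and Ngp, at 2.50, has the highest pooled value.

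Single WT arrays mattered as well. Leaving out each of the 10 arrays in turn, 3 of the 44 calls held every time, those of Adgrl3, Adam22 and Zfyve9. Without WT replicate 2 there were 1 higher and 3 lower calls, and without WT replicate 3 also 1 and 3. Leaving out Zeb2 KO replicate 3, the array that stood apart, gave 85 higher and 121 lower calls. In none of the alternatives tried did a called gene change direction. Where a call is lost with 1 array left out, the highest adjusted p so reached is given beside it below.

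**Figure D2:**
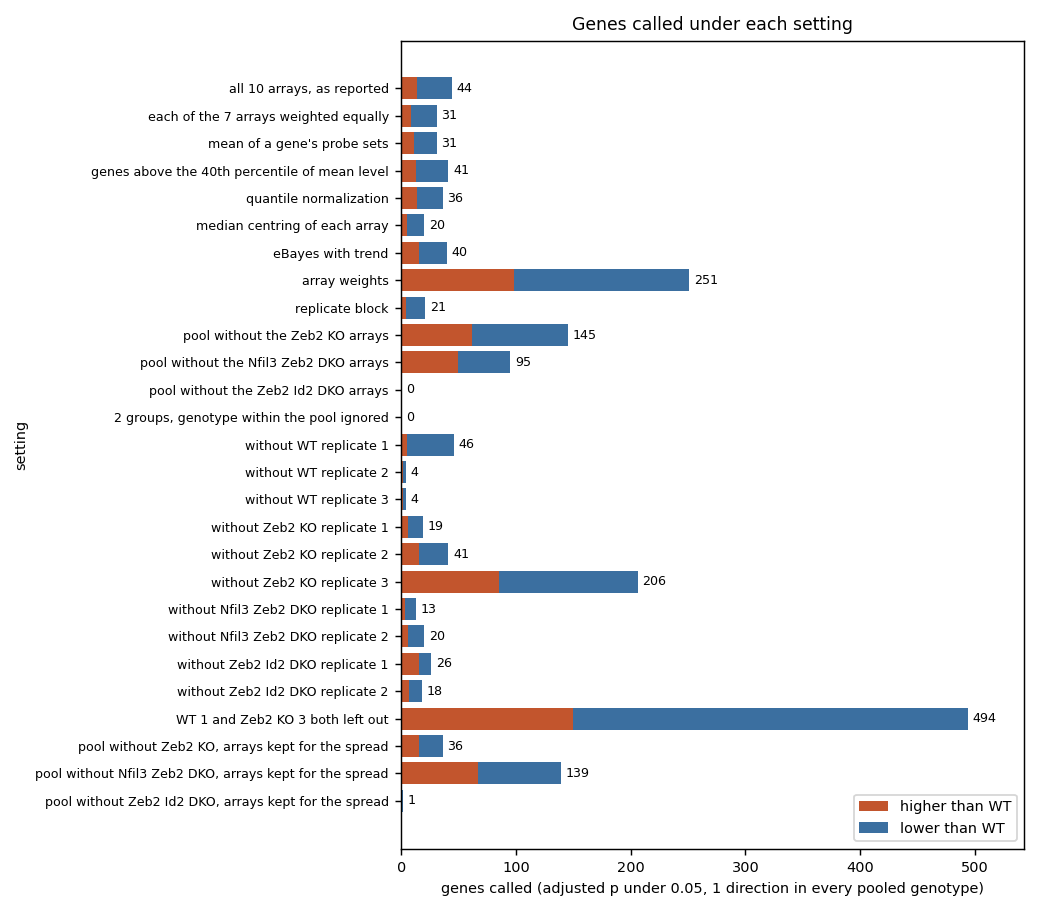
Number of genes called (x axis) under each setting (rows), with genes higher than WT in orange and lower than WT in blue. The count is 44 with all 10 arrays, 4 without WT replicate 2 or 3, 206 without Zeb2 KO replicate 3, and 0 or 1 when Zeb2 Id2 DKO is not pooled.

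Zeb2 binds the E-box half-site CACCTG, so the promoters of called genes were searched for it on both strands, where CAGGTG is the reverse complement. RefSeq promoter windows (GRCm38.p6, 250 bases before to 50 after the start) were found for 35 of the 44 called genes. The motif was present for 3 of the 12 higher genes (25.0%) and 3 of the 23 lower genes (13%), against 22.2% of the 15614 tested genes with a window. By window, the shares were 20.0% of 15 and 8.1% of 37, against 19.6% of 19177 windows. The share among called genes was therefore near or below that of all genes. The windows that hold the motif are shown because Zeb2 protein is known to bind this half-site; a match is a description of letters, not a binding site. Each is written 5′ to 3′ on the gene's strand with the motif in capitals, and coordinates are of the + strand.
Adam22 (lower; chr5:8368111-8368410, - strand): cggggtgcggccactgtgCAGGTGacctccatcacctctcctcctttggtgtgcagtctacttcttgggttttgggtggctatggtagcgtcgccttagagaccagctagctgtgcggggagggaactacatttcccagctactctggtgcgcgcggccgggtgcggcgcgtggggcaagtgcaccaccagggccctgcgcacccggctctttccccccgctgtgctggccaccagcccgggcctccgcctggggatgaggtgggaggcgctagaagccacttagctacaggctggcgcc
Slc25a33 (lower; chr4:149774218-149774517, - strand): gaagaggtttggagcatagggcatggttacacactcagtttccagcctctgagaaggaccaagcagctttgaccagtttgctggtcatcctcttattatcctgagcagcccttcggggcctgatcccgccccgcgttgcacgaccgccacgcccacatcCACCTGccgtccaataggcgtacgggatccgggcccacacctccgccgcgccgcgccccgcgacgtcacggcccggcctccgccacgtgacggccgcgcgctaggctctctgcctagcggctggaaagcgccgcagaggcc
Ramp3 (lower; chr11:6658283-6658582, + strand): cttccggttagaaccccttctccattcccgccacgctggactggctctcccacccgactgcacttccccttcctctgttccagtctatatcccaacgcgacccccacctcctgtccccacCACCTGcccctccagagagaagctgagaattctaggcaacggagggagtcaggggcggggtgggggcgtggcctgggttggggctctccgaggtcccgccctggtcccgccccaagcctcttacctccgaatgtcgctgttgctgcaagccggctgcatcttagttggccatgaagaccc
S100a9 (higher; chr3:90695672-90695971, - strand): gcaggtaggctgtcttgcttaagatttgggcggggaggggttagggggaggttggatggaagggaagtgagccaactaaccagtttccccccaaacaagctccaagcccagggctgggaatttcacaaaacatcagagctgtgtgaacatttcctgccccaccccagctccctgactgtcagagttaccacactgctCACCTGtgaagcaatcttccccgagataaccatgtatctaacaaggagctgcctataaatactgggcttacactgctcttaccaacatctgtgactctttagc
Slfn1 (higher; chr11:83116570-83116869, + strand): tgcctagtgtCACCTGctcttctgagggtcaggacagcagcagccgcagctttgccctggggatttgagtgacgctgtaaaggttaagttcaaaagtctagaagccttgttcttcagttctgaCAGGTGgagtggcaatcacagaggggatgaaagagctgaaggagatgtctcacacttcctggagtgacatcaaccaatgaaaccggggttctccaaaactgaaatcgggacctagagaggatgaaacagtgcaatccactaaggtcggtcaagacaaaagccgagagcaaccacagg
Scd4 (higher; chr19:44333076-44333375, + strand): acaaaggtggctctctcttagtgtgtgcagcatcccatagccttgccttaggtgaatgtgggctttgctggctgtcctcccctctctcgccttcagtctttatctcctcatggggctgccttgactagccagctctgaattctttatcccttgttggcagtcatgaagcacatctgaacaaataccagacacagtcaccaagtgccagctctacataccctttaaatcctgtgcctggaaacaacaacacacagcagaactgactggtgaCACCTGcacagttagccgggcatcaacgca
Counted from the start site, with negative positions before it, the match begins at -232 in Adam22, -130 in Ramp3, -91 in Slc25a33 and -53 in S100a9. Slfn1 has 2 matches, at -240 and -127, and the match of Scd4 begins at 21. Adgrl3 and Zfyve9, whose calls held with any array left out, are not among the genes with a match.

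Of the 3 calls that no left-out array ended, 2 were of membrane proteins of cell adhesion. Adgrl3, which encodes latrophilin 3, an adhesion G protein-coupled receptor, lay at 6.56, 6.53 and 6.48 in Zeb2 KO, 6.57 and 6.85 in the Nfil3 Zeb2 DKO pair and 5.31 and 5.33 in the Zeb2 Id2 DKO pair, against 7.90, 8.15 and 7.35 in WT. All 7 Zeb2-deleted arrays were below all 3 WT arrays, and Adgrl3 fell 3.06-fold (log2 -1.61 [-1.93 to -1.30], adjusted p = 0.00202). The largest adjusted p with any array left out was 0.0141. Adam22, a catalytically inactive member of the ADAM family that binds LGI proteins, lay at 7.83, 7.51 and 7.56 in Zeb2 KO, 8.02 and 8.08 in the Nfil3 Zeb2 DKO pair and 6.78 and 6.57 in the Zeb2 Id2 DKO pair, against 8.69, 8.55 and 8.28 in WT. Again no Zeb2-deleted array reached the WT range, and Adam22 fell 2.08-fold (log2 -1.06 [-1.28 to -0.83], adjusted p = 0.00362; up to 0.0477 with an array left out). Both genes differed among the 3 genotypes by the F test (adjusted p = 0.0176 for Adgrl3 and 0.00572 for Adam22), with Zeb2 Id2 DKO lowest. Mpzl2, an immunoglobulin-type adhesion molecule, fell 1.57-fold (7.97 to 8.46 in the 7 Zeb2-deleted arrays, 8.71 to 9.04 in WT; adjusted p = 0.0488, up to 0.308).

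Zfyve9 encodes SARA, the anchor that brings SMAD2 and SMAD3 to the activated TGF-beta receptor. It lay at 6.04, 6.08 and 5.97 in Zeb2 KO, 6.34 and 6.54 in the Nfil3 Zeb2 DKO pair and 5.38 and 5.43 in the Zeb2 Id2 DKO pair, against 6.76, 7.08 and 6.93 in WT. The groups did not overlap, and Zfyve9 fell 1.96-fold (log2 -0.97 [-1.14 to -0.79], adjusted p = 0.00176; up to 0.0173 with an array left out). The shift was -0.89 for Zeb2 KO, -0.49 for Nfil3 Zeb2 DKO and -1.52 for Zeb2 Id2 DKO, a difference among genotypes with an adjusted p of 0.00666. Of 34 measured TGF-beta and SMAD signalling genes, a pathway in which Zeb2 protein is known to bind SMADs, Zfyve9 was the 1 called. In all 3 genotypes 12 were lower and 1 higher, beside 19.7% and 19.6% of all genes. The list median was -0.07. Tgif1, a SMAD corepressor, had -0.29 (adjusted p = 0.773), Tgfb3, a ligand, -0.33 (adjusted p = 0.642), and Ski, another corepressor, -0.16 (adjusted p = 0.735).

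**Figure D3:**
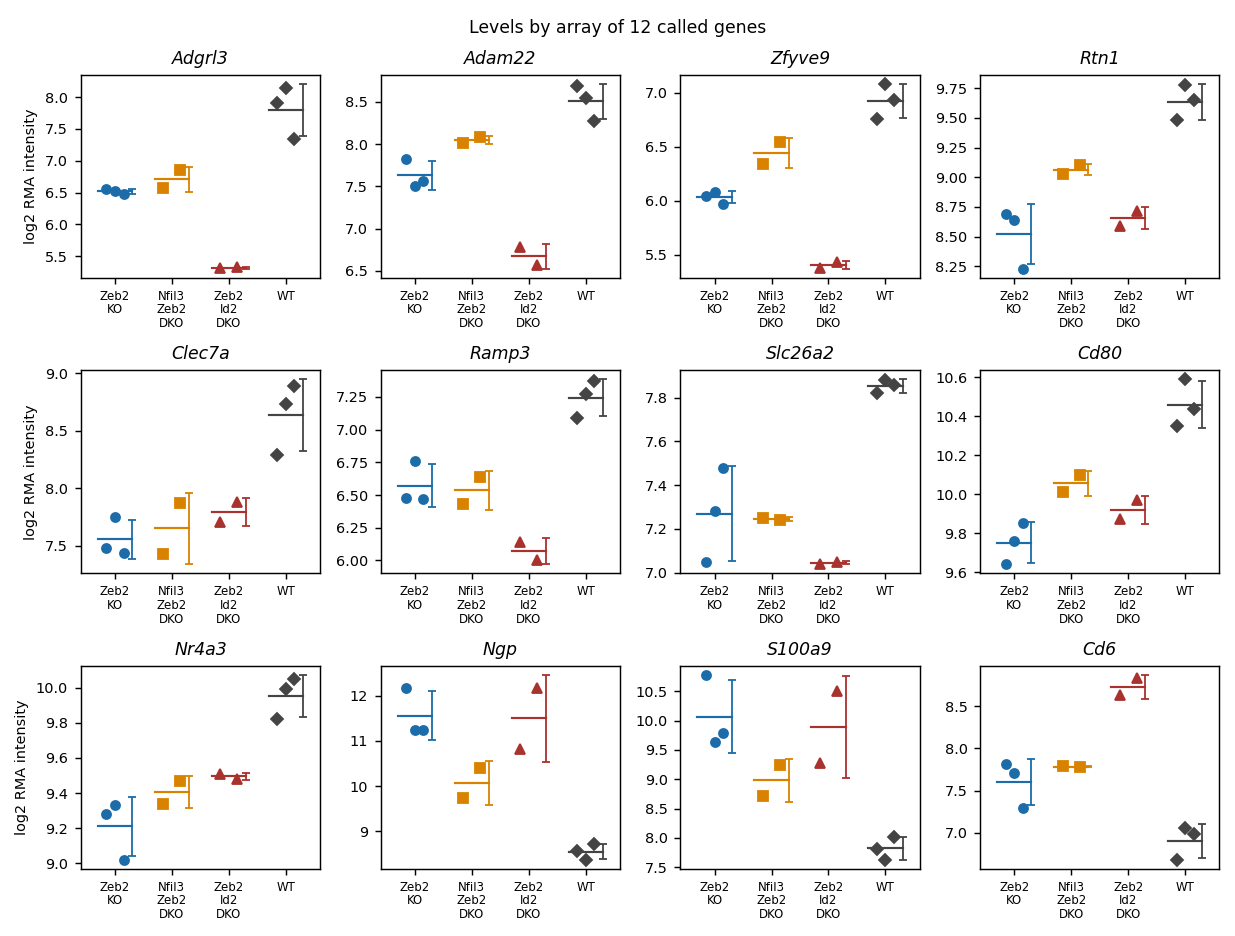
Log2 RMA intensity (y axes, a separate scale for each gene) of 12 called genes in every array, by genotype, with group means (lines) and SD (bars; n = 3, 2, 2 and 3). In each panel the 7 Zeb2-deleted arrays lie on 1 side of the 3 WT arrays; Adgrl3 is lowest in Zeb2 Id2 DKO and Ngp highest in Zeb2 KO and Zeb2 Id2 DKO.

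Clec7a encodes dectin-1, the receptor for fungal beta-glucan. It lay at 7.48, 7.75 and 7.44 in Zeb2 KO, 7.43 and 7.87 in the Nfil3 Zeb2 DKO pair and 7.71 and 7.88 in the Zeb2 Id2 DKO pair, against 8.29, 8.73 and 8.89 in WT. No arrays overlapped, and Clec7a fell 1.96-fold (log2 -0.97 [-1.28 to -0.66], adjusted p = 0.0314; up to 0.234). Ramp3, an accessory protein of the calcitonin-receptor-like receptor, lay at 6.48, 6.76 and 6.47 in Zeb2 KO, 6.43 and 6.64 in the Nfil3 Zeb2 DKO pair and 6.14 and 6.0 in the Zeb2 Id2 DKO pair, against 7.09, 7.27 and 7.37 in WT. It fell 1.81-fold (log2 -0.86 [-1.06 to -0.65], adjusted p = 0.00702; up to 0.0854 and among single left-out arrays lost without WT replicate 2 or 3) and its arrays did not overlap either. Cd300e, an activating receptor of myeloid cells, fell 1.5-fold, with 6.81 to 7.15 in the Zeb2-deleted arrays and 7.39 to 7.64 in WT (adjusted p = 0.0336; up to 0.200). Gypc, the membrane protein glycophorin C, fell 1.63-fold, with 7.51 to 8.04 in the Zeb2-deleted arrays and 8.38 to 8.68 in WT (adjusted p = 0.0432; up to 0.278). For none of these 4 genes did the F test among genotypes pass (adjusted p = 0.850 for Clec7a, 0.186 for Ramp3, 0.786 for Cd300e and 0.853 for Gypc), which does not show that the genotypes were equal.

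Rtn1, a reticulon of the endoplasmic reticulum that is more typical of cDC2s, fell 1.85-fold. It lay at 8.69, 8.64 and 8.23 in Zeb2 KO, 9.03 and 9.10 in the Nfil3 Zeb2 DKO pair and 8.59 and 8.72 in the Zeb2 Id2 DKO pair, against 9.48, 9.78 and 9.65 in WT. Its arrays did not overlap (log2 -0.89 [-1.12 to -0.66], adjusted p = 0.0111; up to 0.118 and among single left-out arrays lost without WT replicate 2 or 3). Rtn1 was the 1 called member of the 24 measured cDC2 genes, of which 10 were lower and 2 higher in all 3 genotypes (median -0.12). The cDC2 factor gene Irf4 had -0.36 [-0.78 to 0.07] (adjusted p = 0.898). The C-type lectin gene Cd209a had -0.74 (adjusted p = 0.371) and Esam -0.68 (adjusted p = 0.375), while Itgam, which encodes CD11b and is also strong in neutrophils, had 0.67 (adjusted p = 0.396).

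Genes of activated, mature dendritic cells lay lower in the Zeb2-deleted genotypes. Of 35 measured maturation genes, 3 fell (Cd80, Nr4a3 and Il12b) and 0 rose, where 0.15% of all genes were called lower. In all 3 genotype means 22 were lower and 0 higher, where 19.7% of all genes were lower. The list median was -0.24, beside 0.002 for all genes. All 7 arrays were below WT for 5 members: Cd80, Nr4a3, Serpinb9, Traf1 and Tnfsf4, where over all genes this held for 1.09%. Cd80, a costimulatory ligand for CD28, lay at 9.64, 9.76 and 9.85 in Zeb2 KO, 10.01 and 10.10 in the Nfil3 Zeb2 DKO pair and 9.87 and 9.97 in the Zeb2 Id2 DKO pair, against 10.35, 10.59 and 10.44 in WT. It fell 1.47-fold (log2 -0.55 [-0.72 to -0.39], adjusted p = 0.0230; up to 0.181). Nr4a3, a nuclear receptor induced on activation, lay at 9.28, 9.33 and 9.02 in Zeb2 KO, 9.34 and 9.47 in the Nfil3 Zeb2 DKO pair and 9.51 and 9.48 in the Zeb2 Id2 DKO pair, against 9.82, 9.99 and 10.05 in WT. It fell 1.5-fold (log2 -0.58 [-0.77 to -0.39], adjusted p = 0.0314; up to 0.235).

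Il12b, the shared subunit of interleukin-12 and interleukin-23 that cDC1s make in response to microbes, was uneven among genotypes. It lay at 9.83, 10.01 and 10.20 in Zeb2 KO, 11.30 and 10.73 in the Nfil3 Zeb2 DKO pair and 10.08 and 10.01 in the Zeb2 Id2 DKO pair, against 11.05, 11.01 and 11.25 in WT. Nfil3 Zeb2 DKO overlapped WT with a shift of -0.09, while Zeb2 KO had -1.09 and Zeb2 Id2 DKO -1.06 (F test among genotypes, adjusted p = 0.0359). The pooled call of Il12b (log2 -0.74 [-1.02 to -0.47], adjusted p = 0.0488; up to 0.308) therefore describes Zeb2 KO and Zeb2 Id2 DKO more than Nfil3 Zeb2 DKO. The members that did not pass included Serpinb9, a granzyme B inhibitor (log2 -0.52, adjusted p = 0.110), Ccr7, the receptor that guides mature cells to lymph nodes (-0.47, adjusted p = 0.475), and Traf1 (-0.34, adjusted p = 0.299). Per array, the mean deviation of the maturation list from the WT mean was -0.50, -0.44 and -0.13 in Zeb2 KO, -0.02 and -0.23 in the Nfil3 Zeb2 DKO pair and -0.50 and -0.40 in the Zeb2 Id2 DKO pair, against 0.00, -0.01 and 0.02 in WT. All 7 values were below the WT range, with Nfil3 Zeb2 DKO replicate 1 at its edge. With 1 array left out the list median stayed between -0.31 and -0.23, and the number of called members between 0 and 8.

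Ccl2, Tank and Dusp4 also fell and are not called members of the maturation list. Ccl2, a chemokine that recruits monocytes, fell 1.78-fold (8.16, 8.06 and 7.97 in Zeb2 KO, 8.27 and 8.22 in the Nfil3 Zeb2 DKO pair and 6.86 and 7.35 in the Zeb2 Id2 DKO pair, against 8.46, 8.89 and 8.56 in WT; adjusted p = 0.0272, up to 0.167). It was the 1 called of 26 chemokine and chemokine receptor genes, of which 10 were lower and 6 higher in all 3 genotypes (median -0.10). Tank, which binds TRAF proteins and modulates NF-kB signalling, fell 1.43-fold, with 8.55 to 9.17 in Zeb2-deleted arrays and 9.29 to 9.46 in WT (adjusted p = 0.0488; up to 0.322). Dusp4, a phosphatase of MAP kinases, fell 1.40-fold, with 6.47 to 6.93 in Zeb2-deleted arrays and 7.0 to 7.29 in WT (adjusted p = 0.0488; up to 0.319). Of 18 genes of NF-kB and its inhibitors 0 were called, 9 were lower and 1 higher in all 3 genotypes, and the median was -0.09.

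Immediate early and stress genes, which respond within minutes to stimulation or handling, share Nr4a3 with the maturation list. Of 27 measured members Nr4a3 was called, and the median was -0.24. In all 3 genotypes 20 were lower and 0 higher, beside 19.7% and 19.6% of all genes. The members with no overlap between groups, 4 in all, were Nr4a3, Fosl2 (log2 -0.67, adjusted p = 0.0623), Egr2 (-0.61, adjusted p = 0.124) and Nr4a2 (-0.38, adjusted p = 0.268). Over all genes, all 7 arrays lay below WT in 1.09%. WT arrays themselves differed in this list, with mean deviations of -0.26, 0.13 and 0.13 in replicates 1 to 3. The Zeb2-deleted arrays lay between -0.51 and -0.14, so they overlapped WT replicate 1. The part of this list's shift in the maturation calls was not tested.

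Neutrophil genes were higher in the Zeb2-deleted genotypes. All 22 listed were measured and had a higher mean in every genotype, which held for 19.6% of all genes. Of the 22, 3 rose past the test (Ngp, S100a9 and Prtn3) and 0 fell, where 0.0702% of all genes were called higher. The list median was 0.85. For 11 of the 22 all 7 arrays lay above WT, where over all genes this held for 0.833%. Ngp, a neutrophil granule protein, lay at 12.18, 11.25 and 11.24 in Zeb2 KO, 9.73 and 10.41 in the Nfil3 Zeb2 DKO pair and 10.82 and 12.18 in the Zeb2 Id2 DKO pair, against 8.57, 8.37 and 8.71 in WT. It rose 5.64-fold (log2 2.50 [1.85 to 3.14], adjusted p = 0.0107; up to 0.117 and among single left-out arrays lost without WT replicate 2 or 3). S100a9, a calcium-binding alarmin abundant in neutrophils and monocytes, lay at 10.78, 9.63 and 9.79 in Zeb2 KO, 8.72 and 9.24 in the Nfil3 Zeb2 DKO pair and 9.28 and 10.51 in the Zeb2 Id2 DKO pair, against 7.82, 7.63 and 8.02 in WT. It rose 3.54-fold (log2 1.83 [1.19 to 2.47], adjusted p = 0.0432; up to 0.275). Prtn3, the granule serine protease proteinase 3, rose 2.25-fold (log2 1.17 [0.74 to 1.60], adjusted p = 0.0488; up to 0.302), although Nfil3 Zeb2 DKO replicate 1, at 6.41, lay within the WT range of 5.98 to 6.53.

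Just outside the threshold lay S100a8, the partner of S100a9 (log2 2.46 [1.52 to 3.39], adjusted p = 0.0558). The list's lowest values were those of Cebpe (0.16) and Csf3r (0.29). The mean deviation of the 22 genes from WT was 1.89, 1.0 and 1.26 in Zeb2 KO, 0.29 and 0.77 in the Nfil3 Zeb2 DKO pair and 1.01 and 1.93 in the Zeb2 Id2 DKO pair, against 0.00, -0.08 and 0.08 in WT. Their summed intensity was 8320 to 18359 in Zeb2 KO, 3642 to 5628 in the Nfil3 Zeb2 DKO pair and 7257 to 18043 in the Zeb2 Id2 DKO pair, against 2264 to 2729 in WT. Array intensities have no true zero, so no marker can be read as absent. These genes are also made by immature myeloid cells, and the gate of the sort is unknown here; the part of other cells in the signal was not tested. With 1 array left out the list median stayed between 0.74 and 0.98, while the number of called members was 0 without WT replicate 2 or 3 and reached 8 without Zeb2 KO replicate 3. The median was 0.64 with 0 calls without the Zeb2 Id2 DKO arrays, and 1.19 with 10 calls without the Nfil3 Zeb2 DKO arrays.

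**Figure D4:**
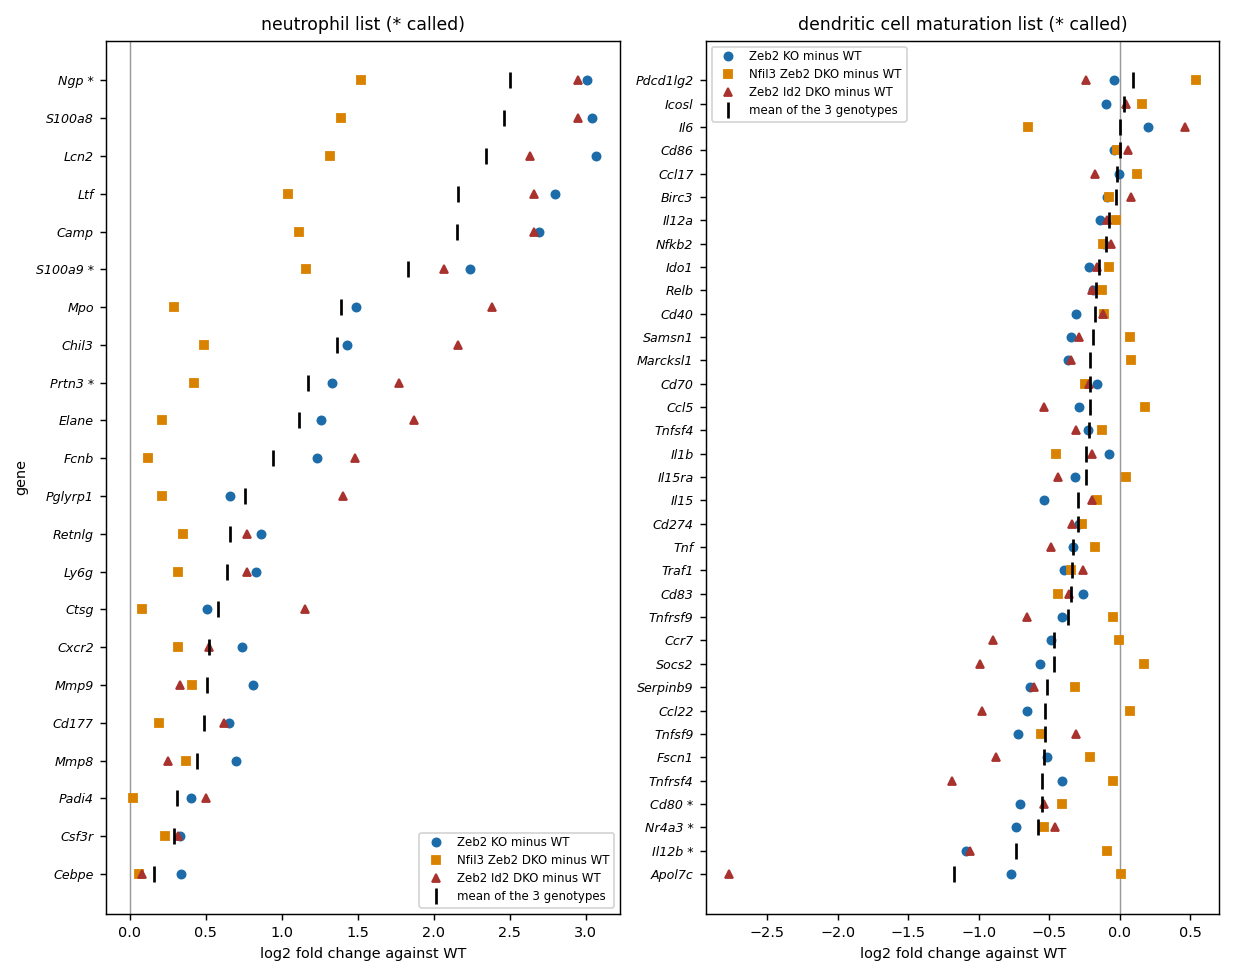
Shift from WT in log2 units (x axes) of the 22 neutrophil genes (left) and the 35 dendritic cell maturation genes (right), with 1 row per gene, coloured symbols for the 3 genotypes, black ticks for their mean and asterisks for called genes. All 22 neutrophil genes lie above 0 in every genotype, and 22 maturation genes lie below 0 in all 3 genotypes.

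Of 12 basophil and mast cell genes 0 were called, and 5 were higher in all 3 genotypes with a list median of 0.06. They included the basophil proteases Mcpt8 (log2 2.09 [0.58 to 3.61], adjusted p = 0.452) and Prss34 (1.81 [0.45 to 3.16], adjusted p = 0.480). Mcpt8 lay at 9.53, 8.66 and 5.76 in Zeb2 KO, 6.21 and 6.54 in the Nfil3 Zeb2 DKO pair and 7.93 and 8.89 in the Zeb2 Id2 DKO pair, against 6.59, 4.95 and 4.95 in WT, and so ranged widely within genotypes. Without Zeb2 KO replicate 3, 3 basophil and mast cell genes were called higher. B cell genes had 0 of 17 called, 14 lower in all 3 genotypes and a median of -0.35, but WT replicate 1 lay 0.85 above the WT mean for this list. Without that array 4 were lower and 6 higher in all 3 genotypes, and the median was 0.12. All 12 measured erythroid genes had genotype means of mixed sign (0 called, median 0.30, or 0.08 to 0.42 with 1 array left out). Of 9 platelet genes 0 were called, with 1 higher and 2 lower in all 3 genotypes (median 0.04).

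**Figure D5:**
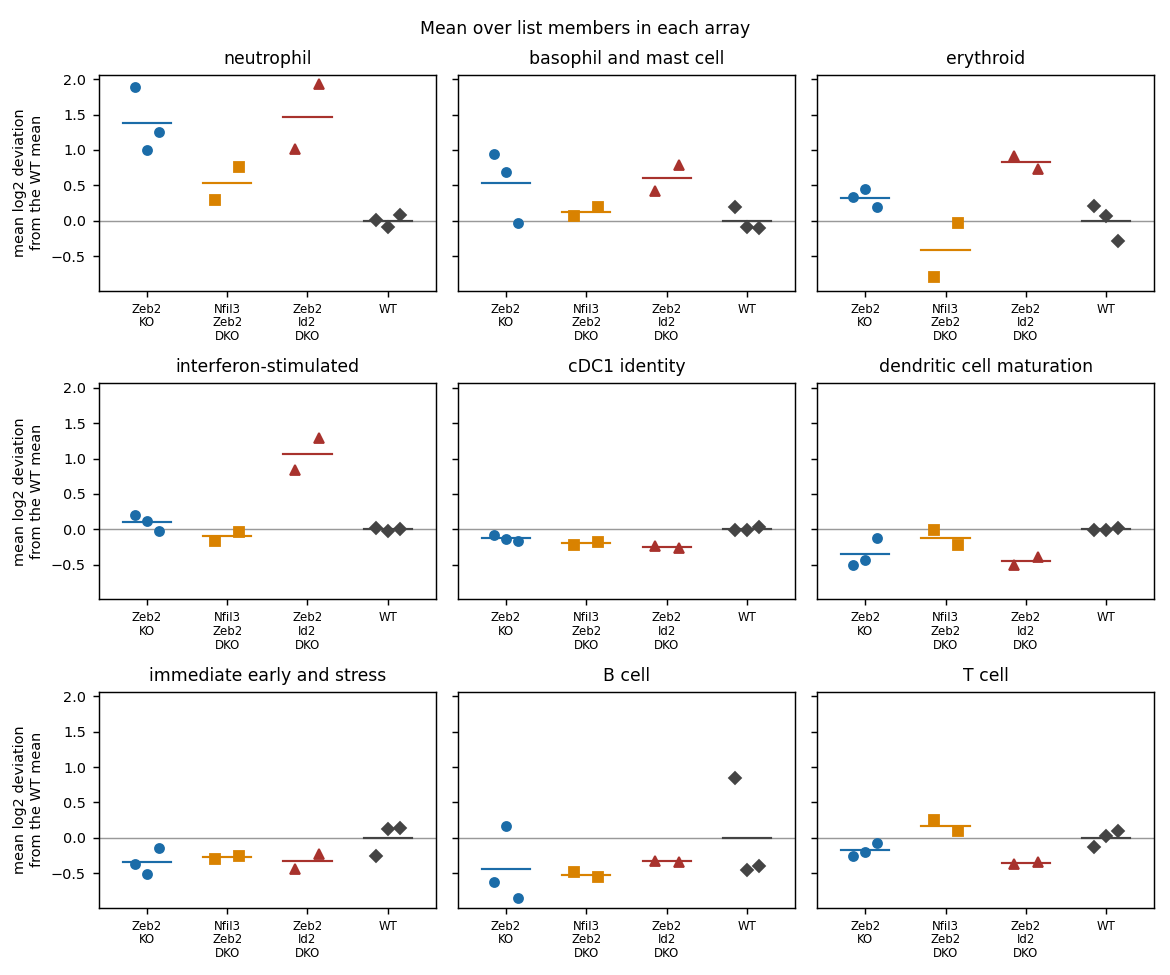
Mean log2 deviation from the WT mean (y axes) over the measured members of 9 gene lists in each array, by genotype, with group means as lines. The neutrophil list is above WT in all 7 Zeb2-deleted arrays (0.29 to 1.93), the maturation list is below WT in all 7 (-0.50 to -0.02), and the B cell list has 1 high WT array at 0.85.

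Of the called genes, 2 that are best known from T cells moved in opposite directions. Cd6, a coreceptor of the scavenger receptor family, lay at 7.81, 7.71 and 7.29 in Zeb2 KO, 7.79 and 7.78 in the Nfil3 Zeb2 DKO pair and 8.63 and 8.83 in the Zeb2 Id2 DKO pair, against 6.68, 7.06 and 6.98 in WT. Its arrays did not overlap and it rose 2.19-fold (log2 1.13 [0.87 to 1.40], adjusted p = 0.00653; 0.0538 without WT replicate 3). Icos, a costimulatory receptor, fell 1.79-fold (7.24, 7.44 and 7.89 in Zeb2 KO, 7.70 and 7.36 in the Nfil3 Zeb2 DKO pair and 6.14 and 6.5 in the Zeb2 Id2 DKO pair, against 7.89, 7.95 and 8.06 in WT; adjusted p = 0.0488, up to 0.308). Of 15 measured T cell genes these 2 were called, 2 were higher and 2 lower in all 3 genotypes, and the median was -0.19. Cd5, a relative of Cd6, had 0.34 (adjusted p = 0.699) and Themis -0.19 (adjusted p = 0.739).

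Slfn1, a schlafen family gene, lay at 6.89, 6.66 and 6.71 in Zeb2 KO, 6.79 and 6.75 in the Nfil3 Zeb2 DKO pair and 8.43 and 8.84 in the Zeb2 Id2 DKO pair, against 6.57, 6.58 and 6.34 in WT. Its arrays did not overlap, and it rose 1.85-fold (log2 0.89 [0.67 to 1.11], adjusted p = 0.00785; up to 0.0854 and among single left-out arrays lost without WT replicate 2 or 3), with shifts of 0.25 for Zeb2 KO, 0.27 for Nfil3 Zeb2 DKO and 2.13 for Zeb2 Id2 DKO (F test, adjusted p = 0.000211). Ifit3, an interferon-induced antiviral gene, had shifts of 0.16 for Zeb2 KO, 0.04 for Nfil3 Zeb2 DKO and 2.30 for Zeb2 Id2 DKO (pooled log2 0.84, adjusted p = 0.0382, up to 0.255; F test, adjusted p = 0.000436), so most of the pooled value came from 1 genotype. It was the 1 called of 27 interferon-stimulated genes, of which 10 were higher and 0 lower in all 3 genotypes. Their median was 0.34, and 0.02 with Zeb2 Id2 DKO out of the pool; 6 were called without Zeb2 KO replicate 3. Ifitm2, which restricts virus entry, rose 1.56-fold (9.47 to 10.77 in Zeb2-deleted arrays, 9.40 to 9.53 in WT; adjusted p = 0.0488, up to 0.299), with a shift of 0.18 for Nfil3 Zeb2 DKO.

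Other genes that rose differed in how even they were. Lgals9, which encodes galectin-9, a lectin bound by the receptor Tim-3, lay at 9.63, 9.14 and 9.03 in Zeb2 KO, 8.67 and 8.93 in the Nfil3 Zeb2 DKO pair and 9.91 and 10.32 in the Zeb2 Id2 DKO pair, against 8.60, 8.40 and 8.26 in WT. No arrays overlapped, and it rose 1.96-fold (log2 0.97 [0.65 to 1.29], adjusted p = 0.0322; up to 0.234). Upp1, uridine phosphorylase of pyrimidine salvage, rose 1.62-fold (adjusted p = 0.0202; up to 0.163), with shifts of 0.42 for Zeb2 KO, 0.31 for Nfil3 Zeb2 DKO and 1.34 for Zeb2 Id2 DKO. Rcn3, a calcium-binding protein of the endoplasmic reticulum, rose 1.48-fold, with shifts of 0.48 for Zeb2 KO, 0.38 for Nfil3 Zeb2 DKO and 0.84 for Zeb2 Id2 DKO (adjusted p = 0.0382; up to 0.235). Slc25a12, the mitochondrial aspartate and glutamate carrier, rose 1.40-fold, with shifts of 0.34 for Zeb2 KO, 0.37 for Nfil3 Zeb2 DKO and 0.75 for Zeb2 Id2 DKO (adjusted p = 0.0488; up to 0.319). Gng12, a G protein gamma subunit, rose 1.32-fold (adjusted p = 0.0432, up to 0.276), and Scd4, a stearoyl-CoA desaturase, 1.26-fold (adjusted p = 0.0488, up to 0.319). Olig1, a basic helix-loop-helix factor, rose 1.36-fold (adjusted p = 0.0432, up to 0.254). Its shifts were 0.07 for Zeb2 KO, 0.24 for Nfil3 Zeb2 DKO and 1.02 for Zeb2 Id2 DKO, so most of the pooled value came from 1 genotype. Zeb2 KO replicate 2, at 5.78, lay below all WT arrays.

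Slc26a2, a sulfate transporter, lay at 7.05, 7.28 and 7.48 in Zeb2 KO, 7.25 and 7.24 in the Nfil3 Zeb2 DKO pair and 7.04 and 7.05 in the Zeb2 Id2 DKO pair, against 7.82, 7.88 and 7.86 in WT. No arrays overlapped, and it fell 1.59-fold (log2 -0.67 [-0.85 to -0.48], adjusted p = 0.0143; up to 0.128). Slc25a33, a mitochondrial carrier of pyrimidine nucleotides, fell 2.05-fold with shifts of -0.90 for Zeb2 KO, -1.08 for Nfil3 Zeb2 DKO and -1.13 for Zeb2 Id2 DKO (6.41 to 7.05 in Zeb2-deleted arrays, 7.13 to 7.95 in WT; adjusted p = 0.0488, up to 0.303). Slc12a2, the sodium, potassium and chloride cotransporter NKCC1, fell 1.51-fold (6.08 to 7.15 in Zeb2-deleted arrays, 7.30 to 7.40 in WT; adjusted p = 0.0137, up to 0.127 and among single left-out arrays lost without WT replicate 2 or 3). Slc44a1, a choline transporter, fell 1.41-fold (adjusted p = 0.0382; up to 0.235). Idh1, the cytosolic isocitrate dehydrogenase, fell 1.51-fold (7.63 to 8.26 in Zeb2-deleted arrays, 8.35 to 8.64 in WT; adjusted p = 0.0488, up to 0.278). St6gal1, which adds terminal sialic acid to glycans, fell 1.68-fold (7.32 to 8.56 in Zeb2-deleted arrays, 8.72 to 8.92 in WT; adjusted p = 0.0140, up to 0.120 and among single left-out arrays lost without WT replicate 2 or 3). Acsf2, an acyl-CoA synthetase, fell 1.36-fold (adjusted p = 0.0488; up to 0.329).

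Xlr, an X-linked lymphocyte-regulated gene, fell 3.07-fold on a dim probe set. It lay at 5.01, 5.60 and 5.15 in Zeb2 KO, 6.14 and 6.25 in the Nfil3 Zeb2 DKO pair and 4.84 and 4.66 in the Zeb2 Id2 DKO pair, against 6.16, 7.43 and 7.47 in WT, and Nfil3 Zeb2 DKO overlapped WT replicate 1 (log2 -1.62 [-2.18 to -1.06], adjusted p = 0.0404; up to 0.264). The Zeb2-deleted levels were below the median of the tested genes (6.44 to 6.55), where the size of a fold is uncertain, and Xlr, Dock1 and Scd4 were the called genes that a filter at the 40th percentile of mean level removed. Nfil3 was called (log2 -1.44, adjusted p = 0.0272; up to 0.208), but its shifts were -0.26 for Zeb2 KO, -3.84 for Nfil3 Zeb2 DKO, where it is a target, and -0.23 for Zeb2 Id2 DKO. Plagl1, a zinc-finger transcription factor, fell 1.64-fold with shifts of -0.48 for Zeb2 KO, -0.74 for Nfil3 Zeb2 DKO and -0.92 for Zeb2 Id2 DKO (adjusted p = 0.0360; up to 0.235). Arhgap42, a GTPase-activating protein, fell 1.53-fold (adjusted p = 0.0153, up to 0.139), and Dock1, a Rac exchange factor, 1.38-fold (adjusted p = 0.0432, up to 0.287). Frmd4b, a FERM-domain scaffold, fell 1.43-fold (adjusted p = 0.0314, up to 0.234). Its shifts were -0.19 for Zeb2 KO, -0.15 for Nfil3 Zeb2 DKO and -1.21 for Zeb2 Id2 DKO, so most of the pooled value came from 1 genotype. Simc1, a SUMO-interacting protein, fell 1.51-fold (adjusted p = 0.0314; up to 0.234), with shifts of -0.19 for Zeb2 KO, -0.53 for Nfil3 Zeb2 DKO and -1.05 for Zeb2 Id2 DKO.

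Of 29 measured cDC1 identity genes 2 fell, the target Nfil3 and Il12b, which is also in the maturation list. In all 3 genotypes 3 were higher and 7 lower, beside 19.6% and 19.7% of all genes. The list median was -0.03. Cadm1, an adhesion molecule of cDC1s, had -0.41 (adjusted p = 0.0842) and Cd207 -0.77 (adjusted p = 0.198). For these 2 members all 7 arrays lay below WT, where over all genes this held for 1.09%. The list mean per array deviated from the WT mean by -0.16 to -0.08 in Zeb2 KO and -0.22 to -0.17 in Nfil3 Zeb2 DKO. It was -0.27 to -0.24 in Zeb2 Id2 DKO and -0.02 to 0.03 in WT, with the targets Nfil3 and Id2 among the members. Of 26 pDC genes 0 were called, with 6 higher and 6 lower in all 3 genotypes (median 0.00, or 0.16 without WT replicate 1). Tlr9 had 0.25 (adjusted p = 0.631), and Irf7 0.58 (adjusted p = 0.396). Among 37 dendritic cell transcription factors the target Nfil3 and Nr4a3 fell, 8 were higher and 11 lower in all 3 genotypes, and the median was -0.02. Cebpa, a myeloid factor, had 0.51 (adjusted p = 0.0782).

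The 12 E proteins, ID proteins and ZEB factors held 0 calls, with 1 higher and 2 lower in all 3 genotypes (median -0.01). The E protein genes Tcf3, Tcf4 and Tcf12 had -0.02, -0.08 and 0.05, and Zeb1, the relative of Zeb2, had 0.12 [-0.02 to 0.25] (adjusted p = 0.899). Over all genes 19.6% were higher and 19.7% lower in all 3 genotypes. Of 29 epithelial genes that ZEB factors repress in epithelia, 13 were higher and 4 lower, 0 were called and the median was 0.05. They included the classic target Cdh1, E-cadherin (log2 0.48 [0.19 to 0.77], adjusted p = 0.312), at 6.61, 6.35 and 5.85 in Zeb2 KO, 6.30 and 6.13 in the Nfil3 Zeb2 DKO pair and 6.81 and 6.91 in the Zeb2 Id2 DKO pair, against 6.01, 5.93 and 5.96 in WT. Zeb2 KO replicate 3 was below all WT arrays for Cdh1 and the other 6 arrays were above them. The tight junction gene Cldn1 had 0.74 (adjusted p = 0.319) and Plet1 1.01 (adjusted p = 0.319).

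Of 21 MHC class I and cross-presentation genes 0 were called and 6 were higher in all 3 genotypes (median 0.01); of 13 MHC class II genes 0 were called, with 1 higher and 5 lower (median -0.02). Of 19 Toll-like receptor and adaptor genes 0 were called, with 6 higher and 6 lower (median 0.03). Cell cycle genes (37 measured, 0 called, 7 higher and 2 lower in all 3 genotypes, median 0.01), glutathione and redox genes (28, 0 called, 8 and 7, median -0.01), red pulp macrophage genes (21, 0 called, 3 and 7, median -0.03), monocyte genes (18, 0 called, 6 and 4, median -0.01) and NK cell genes (15, 0 called, 3 and 4, median 0.00) had medians near that of all genes. Several of these values rested on 1 array. Without WT replicate 1 the cell cycle list had 2 higher and 20 lower in all 3 genotypes (median -0.13), and without WT replicate 3 it had 14 and 0 (median 0.12). Without WT replicate 2 the NK cell median was -0.14. Without Zeb2 KO replicate 3, 5 red pulp macrophage genes were called lower and 4 monocyte genes higher. Hpgd, a prostaglandin-degrading enzyme of red pulp macrophages, had -1.09 [-1.51 to -0.67] (adjusted p = 0.0579).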

How the data were processed

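Total RNA of sorted splenic cDC1s was amplified with the NuGen Ovation Pico kit, labelled with biotin and hybridised to 10 arrays, per the labels' protocols. The authors processed the arrays with RMA in Affymetrix Expression Console, per the submitters' processing notes, and the deposited values are linear RMA intensities between 5.05 and 16019. Genome build and annotation of the arrays are not given in the sources used here.

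From the deposited intensities log2 values were taken. Of 28853 probe sets, 21789 named 1 gene; 1621 that named several and 5443 that named none were left out. Where a gene had several probe sets (999 genes) the one with the highest mean was kept, giving 19938 genes, with no filter on level. Of the called genes, 5 had over 1 probe set: Ifitm2, Cd80, Acsf2, Arhgap42 and Slc44a1. RMA already equalises intensity distributions between arrays, which can hide a shift shared by most genes. All 10 arrays entered 1 linear model with a term for each genotype, fitted with limma 3.58.1 in R 4.3.3 (6 residual and 4.47 prior degrees of freedom). The contrast weighted the 3 genotypes equally, and a moderated F test compared them with each other. Brackets hold 95% confidence intervals. No pair of arrays was identical. No depth applies to arrays; their number limits precision.

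The members and the 26 gene lists were chosen with earlier results of these data known. Lists were described by counts and medians, with no set test. Genes were named by a rule: the 3 targets, a panel of cDC1 and E protein factors, the called genes with the largest shift in their least shifted genotype or the largest pooled change, and up to 4 members per list with the smallest p and 1 direction; the ranked parts omit predicted genes, small RNAs, chemosensory receptors, antigen receptor segments and genes that mark sex. The last were read as Y chromosome genes and a short list of sex markers, so X-linked Xlr is named. The called genes outside this rule are named for completeness. Promoter windows came from RefSeq (GRCm38.p6). Alternatives were equal weight per array, the mean of probe sets, a filter at the 40th percentile of level, quantile normalization, median centring, a variance trend, array weights, a replicate block, 2 groups, and leaving out each genotype or array; leaving a genotype out of the pool with its arrays kept was added after seeing the data.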

Additional observations from a re-analysis of the deposited data

Results flagged for a closer look

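The size of the shift against WT differed among the 3 Zeb2-deleted genotypes in 21 of the 44 called genes (limma moderated F test among these 3 genotypes, Benjamini-Hochberg over all genes). Over all genes the test passed in 112 (0.562%). Calls and F test share the same estimate of the spread, which favours genes that pass both. Among the 21, the Zeb2 Id2 DKO mean lay farthest from WT in 19, a count that was not made over all genes.

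Of the genes higher than WT, 9 differed in this way. The adjusted p was 0.000211 for Slfn1, 0.000436 for Ifit3, 0.00341 for Olig1, 0.00817 for Upp1 and 0.0206 for Cd6. It was 0.0257 for both Ifitm2 and Scd4, 0.0297 for Gng12 and 0.0409 for Lgals9.

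Of the genes lower than WT, 12 differed. The adjusted p was 0.000343 for Nfil3, a target in 1 of the genotypes, 0.00217 for Frmd4b, 0.00299 for Arhgap42, 0.00572 for Adam22, 0.00577 for Slc12a2 and 0.00666 for Zfyve9. It was 0.0128 for St6gal1, 0.0164 for Simc1, 0.0176 for Adgrl3, 0.0206 for Ccl2, 0.0232 for Icos and 0.0359 for Il12b. In Il12b the Nfil3 Zeb2 DKO shift (-0.09) stood apart from those of Zeb2 KO (-1.09) and Zeb2 Id2 DKO (-1.06). In Arhgap42 it was -0.07, against -0.49 in Zeb2 KO and -1.28 in Zeb2 Id2 DKO.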

How the results depend on the processing

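Against 14 higher and 30 lower calls, the count of higher calls was 8 with equal weight per array. It was 5 higher and 15 lower with median centring, 98 and 153 with array weights, 62 and 83 without the Zeb2 KO arrays and 49 and 46 without the Nfil3 Zeb2 DKO arrays. It was 0 and 0 both without the Zeb2 Id2 DKO arrays (limma, 782 genes at an unadjusted p under 0.05) and with the pool treated as 1 group (966). With a genotype out of the pool and its arrays kept for the spread, it was 67 and 72 without Nfil3 Zeb2 DKO and 0 and 1 without Zeb2 Id2 DKO. With WT replicate 1 and Zeb2 KO replicate 3 both left out it was 150 and 344. Leaving out 1 array gave 1 to 85 higher and 3 to 121 lower calls. The extremes were the loss of WT replicate 2 or 3 and of Zeb2 KO replicate 3, which had the lowest array weight (0.19). The number of genes that differed among genotypes (112) became 837 with array weights, 844 with both arrays left out and 25 to 517 with 1 left out. Deviations of same-numbered arrays of different genotypes had correlations of -0.31 to 0.16. Arrays of different number were not compared in this way, so these values cannot show whether the numbers mark a shared batch. The replicate block gave 4 higher and 17 lower calls, and 25 of the 44 calls were lost with it. With the mean of a gene's probe sets there were 11 higher and 20 lower calls, and 13 of the 44 were lost. Those lost included Acsf2, Arhgap42 and Slc44a1, which have over 1 probe set. A call was lost in at least 1 left-out array for 41 of the 44 genes, and 0 reversed in any alternative; 27 of 676 list medians moved by over 1 replicate SD. Why counts moved was not tested.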
